A study of Rattus norvegicus with 4 samples.

Results

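The circadian clock genes described here are 10 genes of the transcriptional clock and its output, Per1, Per2, Per3, Nr1d1, Nr1d2, Dbp, Tef, Nfil3, Bhlhe40 and Clock. They were listed by name, with earlier results of these data in view, and all 10 were found among the 14217 genes that the array's annotation names. The messenger RNA came from left kidneys of male Wistar rats weighing 300 to 480 g, in a model of organ donation after cardiac death. All kidneys lay in the dead animal for 29 min of primary warm ischaemia and then spent 3 h on a perfusion machine with University of Wisconsin solution, a cold organ preservation fluid. The cold group ended there. The warm group had a further 30 min of warm perfusion with an oxygenated salt solution, modified Krebs-Henseleit buffer, which stands in for reperfusion after transplantation. The heparin and PPS groups were treated like the warm group, with low molecular weight heparin or with PPS, known from the labels by this abbreviation alone, at 10 IU/ml in both the cold and the warm perfusate. Each group is 1 Affymetrix array hybridised with an equal mixture of RNA from 3 kidneys, so the spread between kidneys is unknown and a difference between 2 arrays has no p-value. The sources used here do not state the time of day at which the animals died.

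In nearly all mammalian cells, kidney tubule cells included, a heterodimer of Clock and Bmal1 binds E-box elements and switches on the Per and Cry genes, whose proteins return to block it. The same heterodimer drives the nuclear receptors Nr1d1 and Nr1d2 (REV-ERB alpha and beta), which silence genes with RORE elements such as Bmal1 and Nfil3. It also drives Dbp, whose protein, like its relatives Tef and Hlf, activates genes through D-box elements, where Nfil3 acts as the opposing repressor. Some of these genes answer to more than the clock: Per1 is an immediate early gene of cAMP and glucocorticoid signalling, and Bhlhe40 and Nfil3 are induced by stress, hypoxia or cytokines. In the kidney, clock genes are known for daily rhythms in sodium and water transport.

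These clock genes differed between arrays in separate ways. Per1 and Nfil3 were highest on the warm array, and with heparin both were close to their level on the cold array. With PPS, Per1 was close to that level too, and Nfil3 was below it. Nr1d1 was higher on all 3 warm-perfused arrays than on the cold array. Per3, Dbp, Nr1d2 and Tef were highest on the PPS array, while Per2, Nfil3 and Bhlhe40 were lowest there. Clock varied least.

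Short windows of promoter sequence show where the elements named above lie before the annotated starts of these genes. They were read from RefSeq on the rat assembly GRCr8, which holds all 10 genes with 12 starts, and each window reaches from 250 bases before to 50 bases after a start. The letters searched, on both strands, were CACGTG (the E-box), CACGTT (a variant E-box, which shares its first letters with the former), TTANGTAA (the D-box), AGGTCA (a half-site within the RORE), TGACGTCA (the cAMP response element, CRE) and TGACG (a CRE half-site, contained in the full element). The windows below are written 5′ to 3′ on the gene's strand, with the match in capitals. They are shown as examples of each element that matched, in genes with the different behaviours described next.
Nr1d1, E-box: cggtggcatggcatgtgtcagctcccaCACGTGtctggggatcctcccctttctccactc
Tef, E-box: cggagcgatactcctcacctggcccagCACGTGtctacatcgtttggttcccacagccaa
Bhlhe40, E-box: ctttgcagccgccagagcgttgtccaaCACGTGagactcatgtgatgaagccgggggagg
Per2, variant E-box: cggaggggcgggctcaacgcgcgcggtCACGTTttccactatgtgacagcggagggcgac
Per2, D-box: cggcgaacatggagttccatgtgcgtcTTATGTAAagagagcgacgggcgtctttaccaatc
Nr1d2, RORE half-site: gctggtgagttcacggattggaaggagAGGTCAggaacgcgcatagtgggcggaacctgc
Nfil3, CRE half-site: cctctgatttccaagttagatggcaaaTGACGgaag

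The Nr1d1 window lies at chr10:84229613-84229672 on the minus strand, before the more downstream of its 2 starts, with the E-box 191 bases ahead of it. The Tef window is chr7:115206602-115206661 and the Bhlhe40 window chr4:143174203-143174262, both on the plus strand, with the E-box 198 and 220 bases before the start. The Per2 windows are chr9:99497023-99497082 and chr9:99497151-99497212 on the minus strand, 62 and 192 bases before the start. The Nr1d2 window is chr15:9954820-9954879 and the Nfil3 window chr17:12432340-12432375, both on the plus strand, the latter ending just before the start, with its match 9 bases before it. Among 33469 rat promoter windows of the same length, 6.42% held CACGTG, 4.83% CACGTT, 2.24% TTANGTAA, 16.2% AGGTCA and 21.2% TGACG. Of the 12 windows of the clock genes, 3 held CACGTG, 2 CACGTT, 1 TTANGTAA, 1 AGGTCA and 4 TGACG. The matches not printed are CACGTT before Nr1d1, TGACG before Per3, and TGACG after the start of Nr1d2 and Per2. The full CRE was in 1.83% of all windows and in 0 of the 12. These matches describe letters in short windows and are not binding sites shown in these kidneys.

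The 4 arrays were alike in distribution, with median log2 values from 4.50 to 4.54, and 9393 genes were above a floor of 4.51, the 50th percentile of all values, on at least 1 array. All 10 clock genes were above it on all 4 arrays. Of 12 kidney markers 11 were measured, among them Umod (15.4 on the cold array) and Slc34a1 (15.1). All 24 poly-A control probe sets, which detect bacterial RNA spiked in before labelling, were higher on each warm-perfused array than on the cold array, by medians of 1.25 (warm), 1.28 (heparin) and 1.10 (PPS). The 3′ to 5′ difference of the beta-actin probe sets was 2.79 on the cold array and between 3.19 and 3.39 on the others. Scaling the arrays to the poly-A controls moved the median difference of all genes from the cold array to -1.13 (warm), -1.25 (heparin) and -1.05 (PPS). Scaling to the hybridisation controls moved it to -0.39, -0.11 and -0.58. Under the former, the warm minus cold differences of Per3, Nr1d2, Dbp and Bhlhe40 turned negative, and under the latter that of Bhlhe40 did. Such a scaling shifts every gene of an array by 1 constant, before values under the floor are raised to it. It moves genes across the 2-fold limit used below with little change in their distance from the median of all genes. Genes near the floor can change more. Per1 was 0.08 in heparin minus cold as deposited and -0.89 with poly-A scaling, where the median of all genes was -1.25.

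Per1, a period repressor, had a log2 value of 4.54 (cold), 6.74 (warm), 4.63 (heparin) and 4.55 (PPS). It thus stood out on the warm array alone, and its other 3 values lay just above the floor. The difference was 4.59-fold for warm against cold (log2 difference 2.20), and Per1 was 4.33-fold lower with heparin and 4.56-fold lower with PPS than on the warm array. With the floor at the 60th percentile of all values, 6.73, these differences shrank to 0.01 in size, because 3 of the 4 values then lay under the floor. In whole kidney RNA, fewer cells of a type and less RNA per cell cannot be told apart, here and for all genes below.

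Per2, the period gene whose promoter window holds a D-box and a variant E-box, ran the other way. Its log2 value was 10.08 (cold), 9.22 (warm), 9.52 (heparin) and 8.85 (PPS). The cold array was the highest and the PPS array the lowest. Per2 was 2.34-fold lower with PPS than on the cold array (log2 difference -1.23), while warm minus cold (-0.86) and heparin minus cold (-0.56) were within the 2-fold limit. A second Per2 probe set was under the floor on every array, and with both averaged the PPS minus cold difference was -0.61.

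Per3, the period gene least needed for rhythm, had log2 values of 6.17 (cold), 6.79 (warm), 6.79 (heparin) and 7.79 (PPS). The PPS array was the highest and the cold array the lowest. The PPS minus cold difference was 1.62, a 3.08-fold difference. PPS minus warm was 1.00, at the 2-fold limit, and heparin minus PPS was -1.00. A second probe set was under the floor on all arrays, and the mean of both probe sets gave 0.57 for PPS minus cold and for PPS minus warm.

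**Figure D1:**
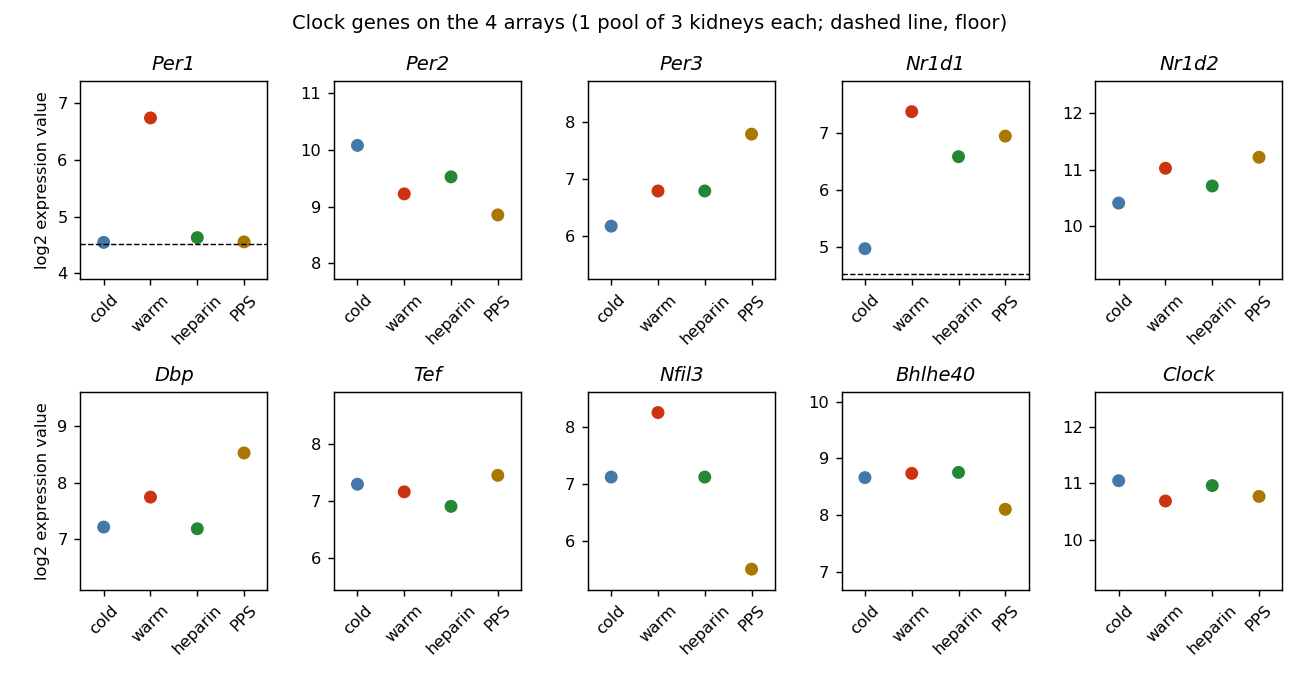
Log2 expression value (vertical axes, each spanning the same number of log2 units) of each clock gene on the cold, warm, heparin and PPS arrays; a point is 1 array of RNA pooled from 3 kidneys, and the dashed line is the floor of 4.51. Per1 and Nfil3 peaked on the warm array at 6.74 and 8.26, whereas Per3 and Dbp peaked on the PPS array at 7.79 and 8.53.

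Nr1d1, the REV-ERB alpha repressor, had log2 values of 4.96 (cold), 7.38 (warm), 6.59 (heparin) and 6.95 (PPS). All 3 warm-perfused arrays were above the cold array. The difference from cold was 5.35-fold on the warm, 3.08-fold on the heparin and 3.96-fold on the PPS array, and Nr1d1 had the largest warm minus cold difference of the 10 genes (2.42). With the floor at 6.73 the 3 differences were 0.65, 0.00 and 0.22. Between the warm-perfused arrays it stayed within the 2-fold limit, at -0.80 for heparin minus warm and -0.43 for PPS minus warm.

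Nr1d2, the REV-ERB beta repressor, was highest on the PPS and lowest on the cold array. Its log2 values were 10.41 (cold), 11.03 (warm), 10.71 (heparin) and 11.22 (PPS). No comparison reached 2-fold, with PPS minus cold the largest at 0.81. Its second probe set above the floor gave 9.40, 9.86, 9.65 and 10.12 in that order, and so ranked the arrays alike.

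Among the D-box factors, the activator Dbp had log2 values of 7.22 (cold), 7.75 (warm), 7.19 (heparin) and 8.53 (PPS). The PPS array stood highest, and the cold and heparin arrays were nearly level. Dbp was 2.48-fold higher with PPS than on the cold array and 2.53-fold higher with PPS than with heparin (heparin minus PPS -1.34). Heparin minus warm was -0.56 and PPS minus warm 0.78, both within the limit.

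The activator Tef, which carries an E-box in its window, differed little. Its log2 values were 7.30 (cold), 7.16 (warm), 6.91 (heparin) and 7.45 (PPS). The largest difference was -0.55, for heparin minus PPS. A second Tef probe set, at 6.30, 6.19, 6.52 and 6.82, also had its highest value on the PPS array but did not have its lowest on the heparin array.

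Nfil3, the D-box repressor that RORE elements and cytokines control, showed the widest range of the 10 genes, 2.77. Its log2 values were 7.12 (cold), 8.26 (warm), 7.12 (heparin) and 5.50 (PPS). The warm array was highest, the cold and heparin arrays were equal, and the PPS array was lowest. Nfil3 was 2.20-fold higher on the warm than on the cold array, 2.20-fold lower with heparin and 6.80-fold lower with PPS than on the warm array. It was also 3.09-fold lower with PPS than with heparin, and in that comparison 99.97% of all genes had a difference at or below that of Nfil3. Scaled to the poly-A controls, its warm minus cold difference was 0.01, against -1.13 for the median of all genes. With the floor at 6.73, heparin minus PPS was 0.39.

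Bhlhe40, the E-box repressor DEC1 and a hypoxia-inducible gene, had log2 values of 8.66 (cold), 8.74 (warm), 8.75 (heparin) and 8.10 (PPS). The first 3 arrays were nearly level and the PPS array was lower, by -0.63 against the warm array, which is within the limit. Clock, the E-box activator, had values of 11.04, 10.69, 10.96 and 10.77 in the same order. Its largest difference was -0.36, for warm minus cold. A second Clock probe set ranked the arrays in the same order, with 8.98 (cold), 8.43 (warm), 8.84 (heparin) and 8.49 (PPS).

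The comparison of warm with cold kidneys addresses what warm oxygenated perfusion adds to cold perfusion. The size limit for calling a gene higher or lower was 2-fold, a log2 difference of 1 or more. For warm minus cold 3 of 10 clock genes passed it, all higher (Nr1d1, Per1 and Nfil3), where 3.64% of the 9393 genes did and 2.48% were higher. The median of the 10 genes was 0.57, against -0.0032 for all genes. Scaled to the poly-A controls, 2 clock genes were higher and 4 lower past the limit, where 69.4% of all genes passed it. Scaled to the hybridisation controls, 2 were higher and 1 lower, where 4.79% of all genes passed. Against the same cold array, heparin had 1 of 10 past the limit (Nr1d1), where 2.09% of all genes were. Scaled to the poly-A controls, 0 were higher and 6 lower, where 81.6% of all genes passed. PPS had 5 of 10, where 1.82% of all genes were: Nr1d1, Per3 and Dbp were higher, and Nfil3 and Per2 lower. With poly-A scaling 0 were higher and 4 lower, where 61.7% of all genes passed. Nr1d1, Per3 and Dbp then no longer passed. With hybridisation control scaling 2 were higher and 3 lower, where 6.49% of all genes passed. Relative to the median of all genes, the same 5 as deposited were past the limit under either scaling. The medians of these comparisons, 0.04 for heparin and 0.08 for PPS, were close to 0 because differences of both signs were present. The 3 comparisons share the cold array, so they are not independent of each other.

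The supplemented kidneys were set against the warm kidneys to ask what each supplement changes. With heparin 2 of 10 clock genes were past the limit, both lower (Per1 and Nfil3), where 1.86% of all genes were past it and 1.48% were lower. With PPS 3 of 10 were, where 2.23% of all genes were; Per1 and Nfil3 were lower and Per3 was higher. Per3 did not pass with hybridisation control scaling. The medians of the 10 genes were -0.28 for heparin and -0.15 for PPS. The 2 comparisons share the warm array, on which Per1 and Nfil3 had their highest values. Both supplements were given at 10 IU/ml and for the same times, so their arrays form the 1 matched pair of agents. In heparin minus PPS 3 of 10 clock genes were past the limit, where 0.49% of all genes were: Nfil3 was higher with heparin (1.63), and Dbp (-1.34) and Per3 (-1.00) were lower. With hybridisation control scaling 3 were higher, Nfil3 (2.09), Per2 (1.14) and Bhlhe40 (1.12), and 0 were lower, with Dbp at -0.87 and Per3 at -0.54. There 1.65% of all genes passed, and the median of all genes was 0.47. Per3 did not pass with reference gene scaling either. Per1 differed by 0.08 between the supplements. With 1 array each, neither a test nor an interval of these differences can be given.

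**Figure D2:**
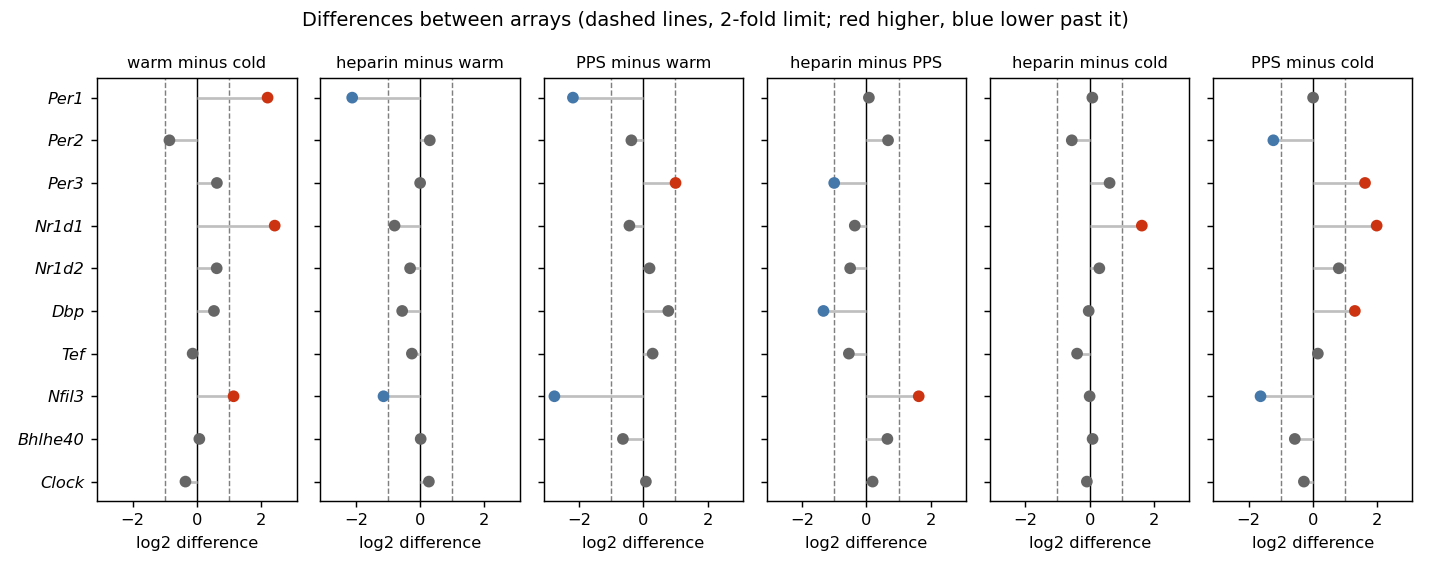
Log2 difference (horizontal axes) of each clock gene in the 6 comparisons of arrays; dashed lines mark the 2-fold limit, red points are higher and blue points lower past it. PPS minus cold has the most points past the limit, 5 of 10, and heparin minus cold the fewest, 1 of 10.

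**Figure D3:**
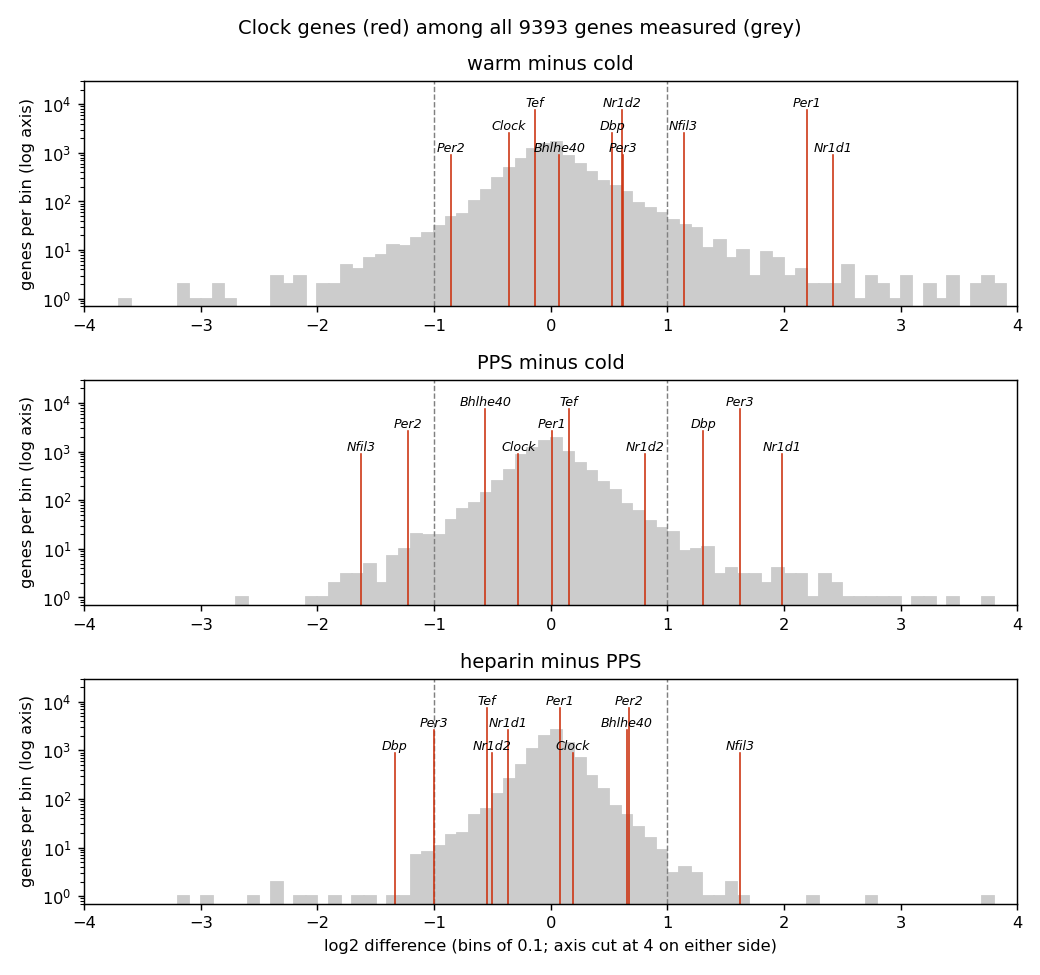
Histograms of the log2 differences of all 9393 genes measured (grey, genes per bin on a log axis) with the clock genes as red lines whose height has no meaning; dashed lines mark the 2-fold limit. In heparin minus PPS, where 0.49% of genes pass the limit, Nfil3 lies at 1.63 and Dbp at -1.34.

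By role, the members known to be induced by stress (Per1, Per2, Nfil3 and Bhlhe40) did not share a direction in warm minus cold. There 2 of 4 were past the limit, with differences from -0.86 to 2.20 and a median of 0.61. With PPS all 4 were lower than on the warm array, from -2.77 to -0.37, 2 of them past the limit, with a median of -1.41. With heparin Per1 and Nfil3 were past it, and Per2 and Bhlhe40 differed by 0.30 and 0.02. The D-box activators Dbp and Tef were both lower with heparin (median -0.41) and both higher with PPS (median 0.54) than on the warm array, 0 of 2 past the limit in either case; Tef turned positive in heparin minus warm when scaled to the hybridisation controls, its second probe set gave 0.33, and the mean over its probe sets gave 0.00. Among the core loop members Per3, Nr1d1, Nr1d2 and Clock, 3 of 4 were higher on the warm than on the cold array, with a median of 0.62 and 1 past the limit. In PPS minus cold this group had a median of 1.22 and 2 of 4 past the limit, against 0.46 and 1 of 4 in heparin minus cold. Medians of all genes in these comparisons were within 0.01 of 0 as deposited.

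The other genes of the loop showed few differences of this size. Of 11 further clock loop genes, 9 had a probe set and 7 were above the floor, and PPS minus cold was the single comparison in which any passed the limit. It was 1 of 7, Cry1, a partner of the period proteins, with log2 values of 6.86 (cold), 6.44 (warm), 6.52 (heparin) and 5.84 (PPS). Bmal1, the partner of Clock, had 8.95, 8.42, 8.53 and 8.20 in this order, so that it too was highest on the cold and lowest on the PPS array. The Clock relative Npas2 differed by at most -0.16 from the cold array, and the repressor Cry2 by at most 0.08. The D-box activator Hlf (PPS minus cold -0.08) and Bhlhe41 (0.35), a relative of Bhlhe40, stayed within the limit. Against the warm array Hlf differed by 0.03 with heparin and 0.10 with PPS. It thus did not share the lower values of Dbp and Tef with heparin. Bmal2 and Rorb were under the floor on every array, and Ciart had no probe set. Of 17 genes whose products modify clock proteins, such as casein kinases and ubiquitin ligases, 11 were measured and 0 were past the limit in any comparison. The deubiquitinase Usp2 had the largest warm minus cold difference among them, 0.52.

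A grouping by promoter element was made after these values were seen and is a description. It follows what is known of each gene and not the matches in the windows above. There the only AGGTCA match was before Nr1d2, which is placed in the E-box and D-box group. Per1, Per3, Dbp and Nr1d2 had no E-box, variant E-box or D-box match there. Genes known to be controlled through RORE elements are Bmal1, Nfil3, Cry1, Clock and Npas2. All 5 were lower on the PPS than on the cold array, with differences of -0.75, -1.63, -1.02, -0.28 and -0.16. Of all 9393 genes, 4787 were lower and 4255 higher in this comparison. The other 8 of the 10 clock genes are known to be driven through E-box or D-box elements. Of these 6 were higher with PPS than on the cold array, 3 of them past the limit, and Per2 (-1.23) and Bhlhe40 (-0.56) were lower. Cry1, counted above, is also driven through E-boxes, as is the cell cycle kinase Wee1, which was lower too (-0.64). The RORE group takes in Bmal1, Cry1 and Npas2 from outside the 10 genes, while the E-box and D-box group takes in none. The 2 groups were thus not chosen alike. Cry2 (0.02), Hlf (-0.08) and Bhlhe41 (0.35), also of the loop, are in neither group. Per1 was among the 6 by 0.01 and turned negative under scaling to poly-A or hybridisation controls and under quantile normalization; Tef turned negative under the first 2 of these, and Nr1d2 under the first. With heparin the RORE-linked genes had a median of -0.15 and the E-box and D-box group one of 0.09 against the cold array. On the warm array these medians were -0.36 and 0.57, with Nfil3 above the cold array.

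**Figure D4:**
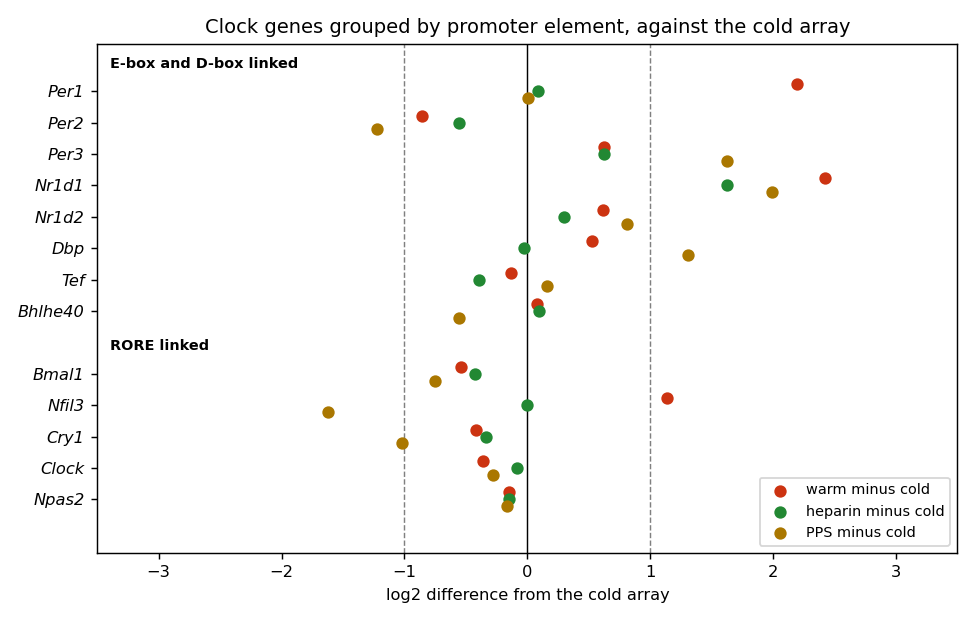
Log2 difference from the cold array (horizontal axis) of 8 clock genes linked to E-box or D-box elements and 5 linked to RORE elements, for the warm (red), heparin (green) and PPS (ochre) arrays, drawn slightly apart; dashed lines mark the 2-fold limit. With PPS all 5 RORE-linked genes lie below 0, from -1.63 to -0.16, while 6 of the 8 others lie above it and Per2 and Bhlhe40 below. Of all 9393 genes, 4787 were below 0 and 4255 above it in PPS minus cold.

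Genes known as outputs of the clock or as inputs to Per1 were examined from lists of their own. Of 15 clock output genes, all measured, 3 were higher past the limit on the warm than on the cold array, where 2.48% of all genes were. They were Pdk4, the kinase that shuts pyruvate out of oxidation (3.30), the cell cycle inhibitor Cdkn1a (1.87) and the repressor Klf10 (1.83). The clock output gene Noct was 7.60 (cold), 8.13 (warm), 6.61 (heparin) and 6.67 (PPS), so that it was past the limit with both supplements against the warm array (-1.52 and -1.45). Scnn1a, the alpha subunit of the epithelial sodium channel and a known Per1 target, differed by 0.81 between warm and cold. Against the warm array it was lower with heparin (-1.07) and differed by -0.46 with PPS. Of 12 CREB and serum-response genes 11 were measured and 9 were higher past the limit in warm minus cold (median 4.79). Among all genes 2.48% were higher past it there. Fos, named among them, had a log2 value of 6.93 (cold), 14.70 (warm), 14.08 (heparin) and 13.44 (PPS). It was far above its cold level with both supplements, and differed from the warm array by -0.62 with heparin and -1.26 with PPS. Of the 11 genes measured in this list, 6 were lower past the limit with heparin than on the warm array (median -1.38). Among all genes 1.48% were lower past it there. With PPS 9 of the 11 were lower past the limit (median -1.98), where 161 of all 9393 genes were lower past it. The other large differences in warm minus cold were those of the transcription factors Atf3 (8.52), Nr4a1 (5.37), Egr1 (5.15), Nr4a2 (5.11) and Junb (4.10), the phosphatase Dusp1 (4.79) and the phosphatase subunit Ppp1r15a (4.60). Nr4a3 (3.01) also passed the limit. It was above the floor on the warm array alone, at 7.52. Of 12 glucocorticoid-responsive genes 10 were measured and 2 were past the limit in warm minus cold, Dusp1 again and Cebpd (3.09). Of all genes 3.64% were past it there. The glucocorticoid targets Tsc22d3 (-0.15), Fkbp5 (-0.62) and Sgk1 (0.26) were within it.

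By a rule based on the distance between log2 profiles over the 4 arrays, each centred on its own mean, 3 genes were named for each of the 6 clock genes past the limit in any comparison, from 9166 genes above the floor on every array. The genes nearest to Per1 were Cdkn1a (distance 0.24), Gem (0.35), a small GTPase, and Hbegf (0.49), a ligand of the EGF receptor. Those nearest to Nfil3 were Slfn4 (0.30), Slco4a1 (0.65) and S100a4 (0.96). Per2 had the closest neighbours, led by Rcan1, an inhibitor of calcineurin (0.12), then LOC102550354 (0.15) and Klhl8 (0.17). Nr1d1 was followed by Cks2 (0.41), Kcnab1 (0.49) and Slc4a10 (0.53). The nearest to Per3 were Mybpc2 (0.25), Mki67 (0.32) and Nek3 (0.37), and the nearest to Dbp were Klhl3 (0.37), Ccdc61 (0.40) and Mki67 (0.48). Each profile has 4 points, so such likeness is a description of these arrays.

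The cold array was compared with the 3 warm-perfused arrays together in a limma fit, with a Benjamini-Hochberg adjustment over all 9393 genes. Differences between the supplements enter its 2 residual degrees of freedom along with chance, and the single cold array is assumed to vary as much as the others. It called 0 of 10 clock genes, where it called 0.0106% of all genes. Before adjustment, 1 of 10 was under the threshold of 0.05, where 16.2% of all genes were, so the share was no higher among the clock genes. It was Nr1d1, with a difference of 2.01 ± 0.37 (standard error, 3 arrays against 1), with an adjusted p of 0.224 by limma. Nr1d1 was higher on 3 of 3 warm-perfused arrays. The next lowest adjusted p by limma was that of Per2, 0.334, with a difference of -0.88 ± 0.32 and lower values on 3 of 3 arrays. For Nfil3 the fit gave -0.16 ± 1.30 and for Per1 0.76 ± 1.16, since these genes differed widely among the 3 warm-perfused arrays.

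Markers of kidney cells and of other cells moved with some of these comparisons. Of the 11 kidney markers measured, 1 was past the limit in warm minus cold, Nphs1 (1.06), and 0 in the other comparisons. Among all genes 2.48% were higher past it in warm minus cold. Slc5a2 (-0.89) and Slc12a3 (0.71) were within the limit there. Of 8 markers of smooth muscle, pericytes and fibroblasts, 7 were measured and 5 were lower past the limit on the warm than on the cold array, where 1.16% of all genes were lower past it. Their summed log2 value over the 8 markers was 65.8 (cold), 59.1 (warm), 61.2 (heparin) and 64.4 (PPS), so the warm array, on which Per1 and Nfil3 peaked, was lowest. In PPS minus warm 2 of the 7 were higher past the limit, Col1a1 (1.70) and Col1a2 (1.47). Of 6 fat cell markers 2 were measured, Fabp4 and Car3, and both were lower past the limit in heparin minus warm. Summed over all 6 markers, of which 4, Adipoq and Lep included, were under the floor on every array, the log2 value was 26.7 on the warm and 23.6 on the heparin array. Of 8 leukocyte markers 3 were measured and 0 of these were past the limit in any comparison; summed over all 8, those under the floor included, the log2 values ran from 38.9 on the heparin to 40.1 on the warm array. Of 8 endothelial markers 7 were measured and 1, Vwf, was past the limit, in heparin minus cold (-1.59), with summed values from 67.2 on the PPS to 68.4 on the warm array. Of 5 red cell markers 2 were measured, Hbb and Slc4a1. Alas2, also on that list, was under the floor on every array. In heparin minus warm Hbb and Slc4a1 were both lower (-0.50 and -0.46), and in the comparisons given next they differed in opposite directions. Hbb differed by -1.14 in warm minus cold, -1.65 in heparin minus cold and -1.02 in heparin minus PPS. The values of Slc4a1 in these comparisons were 0.57, 0.11 and 0.10. All 5 adrenal markers with a probe set were under the floor on every array. The part of these cell types in the clock gene differences was not tested.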

How the data were processed

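The authors deposited log2 values per probe set for 4 arrays, and the submitters' processing notes name GCRMA, without a version. That the scale is log2 follows from the range of the values, 2.11 to 16.4; no raw intensities were used here. GCRMA models background, so values near the lowest are set by that model, and arrays end with near-equal distributions. Of 31099 probe sets, 20832 have 1 gene symbol, updated through Entrez identifiers to RefSeq on GRCr8 (20764 found). A gene was represented by its probe set of highest mean; 19 probe sets belong to the 10 genes. Values under the 50th percentile were raised to it. Differences between arrays have no test. The limma fit (limma 3.58.1, R 4.3.3) used values without the floor and was tested on simulated data; other steps used Python 3.11.15. Genes named are all 10 members, listed partners, genes of the lists of loop, modifier, output, CREB and serum-response and glucocorticoid genes past 2-fold in warm minus cold (at most 8 per list), and 3 profile neighbours for each member past 2-fold. Noct, Scnn1a, Usp2, Wee1, Nr4a3, Bmal2, Rorb, 3 glucocorticoid targets and the markers of kidney and other cells were named after their values were seen. The members and lists were chosen with earlier results of these data known.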

Additional observations from a re-analysis of the deposited data

Results flagged for a closer look

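Dbp differed in opposite directions with the supplements. Against the warm array it was lower with heparin (-0.56) and higher with PPS (0.78), and the difference between the supplements, heparin minus PPS, was -1.34, past the 2-fold limit. This rests on 1 array for each group and a shared warm array, and the difference was not tested. Scaled to the hybridisation controls, heparin minus PPS of Dbp was -0.87, against 0.47 for the median of all genes.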

How the results depend on the processing

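Each of the 60 differences of a clock gene was recomputed under 10 alternatives. Of 17 differences past the limit, 1 stayed past it under all 10 (Nfil3 in PPS minus warm, from -2.95 to -1.53), and 0 of 17 changed sign. No floor, a floor at the 40th percentile, median centring and quantile normalization left all 60 on their side of the limit. The counts of clock genes past the limit that differed by over 1.5 times from those of the text were as follows. With the floor at the 60th percentile the counts against the cold array were 1 (warm), 0 (heparin) and 3 (PPS), and heparin minus warm had 1, where 2.78%, 1.45%, 1.1% and 1.32% of all genes passed, because Per1, Nr1d1 and Nfil3 have values below that floor. With the mean over all probe sets the count was 3 for PPS minus cold (1.57% of all genes). With poly-A control scaling it was 6 for warm minus cold (2 higher, 4 lower) and 6 for heparin minus cold (all lower), where 69.4% and 81.6% of all genes were past the limit. Scaling to hybridisation controls or to reference genes each gave 1 for heparin minus warm, Per1, where 1.81% and 1.67% of all genes passed. Where a count stayed near that of the text its members could still change, as given beside PPS minus cold and heparin minus PPS. With a 1.5-fold limit the counts were 6 for warm minus cold, 5 for PPS minus warm, 5 for heparin minus PPS and 2 for heparin minus cold, where 10.9%, 5.5%, 2.68% and 6.65% of all genes passed. The limma fit called 5 clock genes after poly-A scaling, when it called 8991 of 9393 genes, and 0 under its other 5 alternatives, leaving out each warm-perfused array included. No paired analysis was possible because each group has 1 array and the labels give no replicate numbers. The number of arrays limits precision, and Per1 is near background on 3 of them.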

Other observations

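Some genes had the same value on 2 arrays to within 0.000001 on the log2 scale. Per3 did so on the warm and heparin arrays and Nfil3 on the cold and heparin arrays. Over genes above the floor on both arrays, such identical values made up 2.91% for warm and cold, 2.87% for heparin and cold, 3.45% for heparin and warm and 4.11% for heparin and PPS. A difference of exactly 0 between single arrays is therefore not by itself a precise measurement of no change.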
